A study of Mus musculus with 24 samples.

Results

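The 10 genes described here are Nfe2l2, which encodes the transcription factor NRF2, and 9 genes that NRF2 is known to control or that make, recycle or spend glutathione and NADPH: Gclc, Gclm, Gss, Gsr, Nqo1, Ugdh, Txnrd1, Srxn1 and Me1. They were chosen by name, with earlier results of these data known. Every probe set whose annotation carries one of these symbols alone was taken. This gave 21 probe sets of the 45101 on the array and 10 genes of 18194. RNA of liver and duodenum from male mice aged 7 weeks was hybridized to 24 Affymetrix mouse arrays, with 3 arrays for each combination of tissue, strain (C57BL/6, called B6, or DBA/2, called D2) and genotype (wild-type or Hfe-/-, called KO in array names). Hfe is the gene mutated in most patients with hereditary hemochromatosis, an iron overload disease, and the Hfe-/- mice carry the disruption in all cells. Wild-type mice came from a breeder, whereas the knockout mice were raised by the investigators, so origin and genotype cannot be told apart.

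NRF2 is held in the cytoplasm by KEAP1, which directs it to degradation. Oxidants and electrophiles modify KEAP1, and NRF2 then accumulates, enters the nucleus with a small MAF protein and binds antioxidant response elements (AREs) in the promoters of its targets. In liver these targets are best known for making glutathione and for conjugating and exporting reactive compounds, and NRF2 is regulated largely at the protein level, so its transcript need not follow its activity.

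Promoter sequence is shown first, for the genes whose windows hold the element that names the group. Windows of 300 bases, from 250 before to 50 after the transcription start, were available from RefSeq (GRCm38.p6) for 8 of the 10 genes, in 11 windows; Gclc and Gsr had none. The ARE core, TGACNNNGC on either strand, was found in a window of 6 of these 8 genes, namely Gclm, Me1, Nfe2l2, Srxn1, Txnrd1 and Ugdh, against 14% of 27025 genes with a window. The AP-1 site, TGANTCA, which can overlap an ARE core, was found in Me1 and Srxn1, against 8.97% of genes. In the stretches below, written 5' to 3' on the strand of the gene, capitals mark the ARE core, read on either strand, or in Srxn1 its AP-1 sites. The stretches lie at chr3:122245403-122245451 (+) for Gclm, chr9:86695912-86695940 (-) for Me1, chr5:65435908-65435994 (-) for Ugdh, chr2:75704875-75704913 (-) for Nfe2l2, chr10:82859094-82859142 (+) for Txnrd1 and chr2:152105402-152105505 (+) for Srxn1.
Gclm: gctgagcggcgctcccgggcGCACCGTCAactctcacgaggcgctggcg
Me1: cggctcggccgatgccgccgTGACTCAGC
Ugdh: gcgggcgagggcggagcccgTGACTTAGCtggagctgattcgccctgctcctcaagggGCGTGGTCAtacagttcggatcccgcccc
Nfe2l2: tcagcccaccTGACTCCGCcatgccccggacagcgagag
Txnrd1: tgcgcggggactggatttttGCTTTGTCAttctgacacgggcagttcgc
Srxn1: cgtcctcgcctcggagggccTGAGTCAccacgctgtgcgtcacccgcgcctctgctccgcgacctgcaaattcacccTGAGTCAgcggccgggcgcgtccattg
Ugdh held 2 matches of the ARE core, at -132 and -94 from the start site, and the match of Me1 at -6 also contains an AP-1 site. The ARE core of Srxn1 lies after its start site, at 29, and is not printed. Gss and Nqo1 had no match of either motif in their windows. A match of these letters is a description of the window and was not tested for binding.

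Values are MAS5 signals, the array maker's summary of a probe set's brightness on a linear scale, with each array scaled by the authors to a trimmed mean of 100. The median signal of an array was 15.8 to 21.0 in liver and 20.1 to 23.4 in duodenum, so most probe sets were dim. All 21 probe sets passed the filter on low signals (the third-brightest array of liver or of duodenum had to reach 20), and each gene is given by its probe set of the highest mean log2 signal unless another is named. Fold changes are differences of mean log2 signal from limma, the standard error (SE) is that of its moderated fit, and adjusted p values are Benjamini-Hochberg values over 28061 probe sets. Genes whose adjusted p did not exceed 0.1 in comparisons of the knockout, or 0.01 in those of strain and tissue, are called. An exact permutation of 3 arrays against 3 cannot give a p below 0.1. In simulated data many changes of 2-fold were not called, so a gene that was not called may still have changed. The labelled genotypes were borne out by Hfe itself, whose log2 fold change in knockout mice was -2.91 in B6 liver, -2.55 in D2 liver, -2.03 in B6 duodenum and -1.47 in D2 duodenum.

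In the liver of B6 mice, Gclc, Gclm, Ugdh and Me1 rose in the knockout, and the log2 fold change was above 0 in all 10 genes. Its median was 0.44 against a median of 0.00 over all 13006 genes. The 4 calls compare with 1.15% of all genes called in either direction, 0.63% upward and 0.515% downward. Since the 10 genes were chosen with earlier results of these data known, such shares describe them and do not test them. In 8 of the 10 genes every knockout array lay above every wild-type array (8.96% of all genes), in Srxn1 only by 194 against 193. In none did every knockout array lie below (9.36% of all genes). In D2 liver Gclc, Gclm and Ugdh rose, where 3.3% of all genes were called, 1.72% upward and 1.58% downward, and the fold changes of the 10 genes were split, 6 positive and 4 negative, with a median of 0.15. Knockout arrays lay wholly above wild-type arrays in 4 genes (10.7% of all genes) and wholly below in Srxn1 (8.57% of all genes). In whole tissue, more transcript per cell and a larger share of cells that hold it cannot be told apart.

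**Figure D1:**
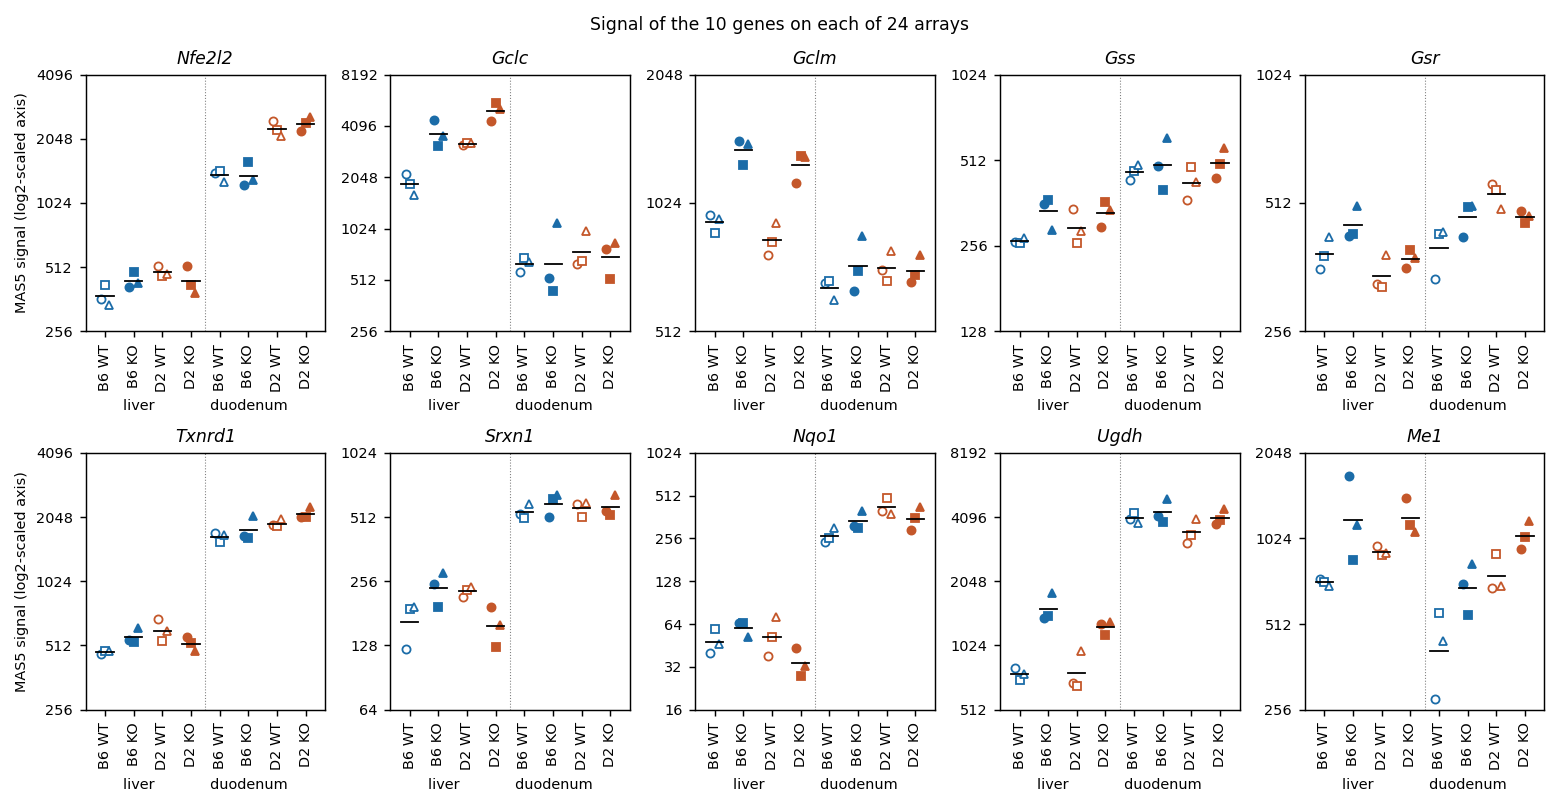
MAS5 signal (log2-scaled axis, a scale of its own in each panel) of the 10 genes on each of 24 arrays, by tissue, strain and genotype. Open points are wild-type and filled points Hfe-/- mice, the marker shape is the replicate number, and black lines are geometric means of 3 arrays. In liver the filled points of Gclc, Gclm and Ugdh stand above the open points of the same strain in both strains.

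The first and rate-limiting step of glutathione synthesis is carried out by glutamate-cysteine ligase, a dimer of the catalytic subunit Gclc and the modifier subunit Gclm. In B6 liver the Gclc signal was 2150, 1870 and 1610 on the wild-type arrays and 4430, 3110 and 3580 on the knockout arrays. D2 livers had 3170, 3250 and 3230 in the wild type and 4400, 5570 and 5160 in the knockout. The groups were apart in both strains, and the wild-type D2 livers lay within the range of the B6 knockout livers. The log2 fold change of Gclc in the knockout was 0.98 in B6 (SE 0.13, adjusted p = 0.00385) and 0.64 in D2 (SE 0.13, adjusted p = 0.0292).

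Gclm gave 959, 872 and 937 in wild-type B6 livers and 1430, 1260 and 1410 in B6 knockout livers. Its D2 signals were 772, 831 and 920 in the wild type and 1140, 1320 and 1310 in the knockout. Every knockout liver was thus above every wild-type liver of either strain. The rise was 0.57 on the log2 scale in B6 (SE 0.09, adjusted p = 0.0129) and 0.58 in D2 (SE 0.09, adjusted p = 0.00744), and the difference between the strains' effects was 0.01, with a 95% interval from -0.26 to 0.29.

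A second probe set stood behind Gclc more than behind Gclm. That of Gclc also rose, by 1.02 on the log2 scale in B6 (adjusted p = 0.00417) and by 0.53 in D2 (adjusted p = 0.0867). That of Gclm had log2 fold changes of 0.35 in B6 and 0.31 in D2 and was not called in either (adjusted p = 0.206 and 0.205).

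Glutathione synthetase, Gss, completes the molecule, and glutathione reductase, Gsr, returns its oxidized form to the reduced one with NADPH. Gss read 264, 262 and 272 in wild-type B6 livers against 360, 371 and 291 in the knockout, and 346, 261 and 289 against 299, 366 and 341 in D2. Gsr read 358, 385 and 425 against 429, 433 and 504 in B6 livers, and 330, 325 and 386 against 361, 397 and 381 in D2. Groups were apart in B6 for both genes, by a small margin, and overlapped in D2. Neither gene was called: the log2 fold change of Gss was 0.35 in B6 (adjusted p = 0.28) and 0.17 in D2 (adjusted p = 0.61), and that of Gsr was 0.23 in B6 (adjusted p = 0.414) and 0.13 in D2 (adjusted p = 0.635).

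Ugdh makes UDP-glucuronate, the donor for glucuronidation, and Me1, cytosolic malic enzyme, makes NADPH. For Ugdh the signal was 806, 707 and 749 in wild-type B6 livers and 1380, 1400 and 1810 in the knockout, and 683, 663 and 967 against 1290, 1140 and 1320 in D2. No knockout liver of either strain fell among the wild-type livers, and the signal rose by 1.01 on the log2 scale in B6 (SE 0.14, adjusted p = 0.00385) and by 0.72 in D2 (SE 0.14, adjusted p = 0.0208). No other probe set carried the symbol of Ugdh alone, so its values rest on this one. Me1 had signals of 740, 718 and 695 in wild-type B6 livers and 1700, 863 and 1140 in the knockout, and 961, 892 and 908 against 1420, 1140 and 1080 in D2. The knockout arrays were above the wild-type arrays in both strains but spread widely in B6, where replicate 1 was the highest. The log2 fold change of Me1 was 0.73 in B6 (SE 0.17, adjusted p = 0.0917), just inside the threshold, and 0.39 in D2 (SE 0.17, adjusted p = 0.349), which was not called. Without B6 knockout replicate 1 the B6 value was 0.47 and the call was lost (adjusted p = 0.194), as it was without any of the B6 wild-type livers or B6 knockout replicate 3 (adjusted p from 0.161 to 0.29) and in 15 of 24 alternatives in all, and its other probe set was not called in either strain.

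Txnrd1, the cytosolic thioredoxin reductase, and Srxn1, which restores hyperoxidized peroxiredoxins, belong to the thiol side of the same response, and Nqo1 reduces quinones. In B6 livers Txnrd1 gave 465, 481 and 482 in the wild type and 543, 530 and 615 in the knockout, whereas D2 livers gave 679, 535 and 595 against 559, 527 and 483. Srxn1 gave 123, 189 and 193 against 248, 194 and 281 in B6 and 217, 233 and 240 against 193, 126 and 159 in D2. Knockout arrays of both genes were thus above the wild type in B6, for Srxn1 only by 194 against 193. In D2 those of Srxn1 were below. Nqo1 was dim in liver, with 39.8, 58.7 and 46.2 against 64.8, 65.5 and 51.6 in B6 and 37.9, 51.6 and 72.0 against 43.5, 27.5 and 32.4 in D2, and its groups overlapped in both strains. None of the 3 genes was called in a strain: the log2 fold changes in B6 and D2 were 0.24 and -0.20 for Txnrd1, 0.53 and -0.55 for Srxn1 and 0.34 and -0.62 for Nqo1, with adjusted p values from 0.201 to 0.694. The probe sets of Srxn1 did not go together in D2, where the others had log2 fold changes of -0.99, -0.39 and, at a mean liver signal of 21.1, 0.88. The other probe sets of Txnrd1 had log2 fold changes of 0.20 and -0.09 in B6 and of 0.17 and 0.05 in D2, with interactions of -0.03 and 0.13.

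Nfe2l2 itself gave 362, 424 and 339 in wild-type B6 livers, 413, 485 and 433 in B6 knockout livers, 518, 464 and 474 in wild-type D2 livers and 516, 424 and 387 in D2 knockout livers. Groups overlapped within each strain. The log2 fold change of the knockout was 0.25 in B6 (adjusted p = 0.44) and -0.14 in D2 (adjusted p = 0.663), neither of them called. Its second probe set was dim (mean liver signal 34.6) and was not called either.

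**Figure D2:**
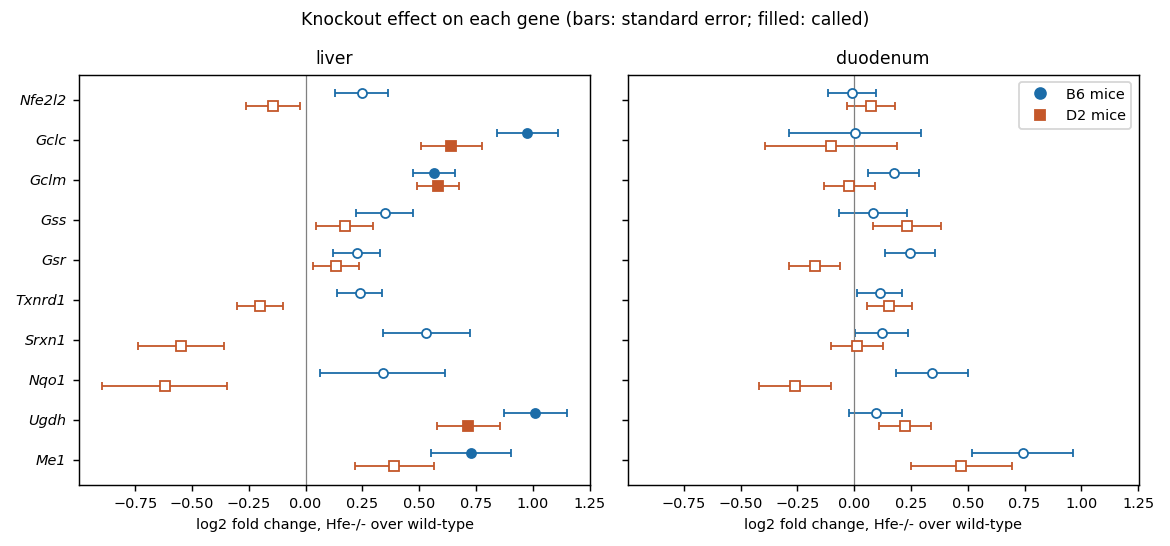
Log2 fold change of Hfe-/- over wild-type mice for each gene, in liver and in duodenum, with B6 mice as circles and D2 mice as squares. Bars are standard errors, and filled points had an adjusted p no higher than 0.1, which was the case for 4 genes in B6 liver, 3 in D2 liver and 0 in duodenum.

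Whether the 2 strains differed in their response was tested by subtracting the B6 effect from the D2 effect (the interaction), and none of the 10 genes was called, where 0.223% of all genes were. It was negative in 9 of the 10 genes, with 4 at an unadjusted p under 0.05, as were 10.2% of all genes. These were Srxn1 at -1.08 (95% interval from -1.65 to -0.50, adjusted p = 0.179), Nqo1 at -0.96 (from -1.79 to -0.13, adjusted p = 0.434), Txnrd1 at -0.44 (from -0.74 to -0.14, adjusted p = 0.296) and Nfe2l2 at -0.39 (from -0.74 to -0.04, adjusted p = 0.458). Without D2 knockout replicate 1, Srxn1 was called both in D2 liver, at -0.70 (adjusted p = 0.0692), and in the interaction, at -1.23 (adjusted p = 0.0407). For the genes that rose in both strains the interaction was -0.34 for Gclc (from -0.74 to 0.07) and -0.30 for Ugdh (from -0.71 to 0.12), intervals that take in both no difference and a D2 effect well below that of B6.

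The liver calls depended on how the spread was estimated and on the hybridization run. Runs were defined here from the hybridization times in the arrays' experiment files. These files also name a station and a protocol, which were not used as blocks. Of the livers, only D2 wild-type replicate 1 had station 2, and only B6 wild-type replicate 3 had another protocol. When limma's prior variance was held the same at all signal levels, none of the 10 genes was called in either strain, with adjusted p values from 0.146 to 0.321 in B6 and from 0.118 to 0.193 in D2 for the genes named above as called. With run as a block, the calls in D2 liver were lost (log2 fold changes of 0.64 for Gclc, 0.45 for Gclm and 0.37 for Ugdh, adjusted p from 0.273 to 0.532). Only D2 wild-type replicate 3 shared the run of the D2 knockout livers, and against it Gclc, Gclm and Ugdh had differences of those same sizes. Among B6 livers, knockout replicate 1 shared a run with the 3 wild-type livers, and within it all 10 genes were positive, with a median of 0.52. In D2 liver the calls of Gclc and Ugdh were also lost without wild-type replicate 1 (adjusted p = 0.112 and 0.105) or without knockout replicate 3 (0.131 and 0.102), and that of Gclc without knockout replicate 2 (0.142). In B6 liver the call of Gclm was lost without wild-type replicate 2 (adjusted p = 0.101).

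Marker genes of other cell types and of liver zones were read on the same arrays. The mean log2 signal of 5 periportal hepatocyte markers, relative to the mean of the liver arrays, was 0.17 to 0.34 in wild-type B6 livers and -0.02 to 0.09 in B6 knockout livers, with no overlap, and -0.24 to 0.13 against -0.24 to -0.10 in D2 livers. With this score as a covariate, an alternative added after the data had been seen, 1 of the 10 genes (Ugdh) was called in B6 liver, while the log2 fold changes of Gclc, Gclm and Me1 were 0.98, 0.63 and 0.78. The 6 enterocyte markers measured, which include Apob, a gene hepatocytes also express, read -0.73 to -0.44 in B6 knockout livers and -0.02 to 0.69 in the wild type. The 7 pericentral markers, whose zone is known for xenobiotic metabolism, spread from -0.33 to 0.44 among B6 knockout livers and from -0.06 to 0.05 among wild-type B6 livers. Among the B6 knockout livers, replicate 1 was the highest for Gclc, Gclm and Me1 and read -0.05. Replicate 2, the highest for Gss, Nfe2l2 and Nqo1, read -0.33. Replicate 3, the highest for Ugdh, Gsr, Txnrd1 and Srxn1, read 0.44. With the pericentral score as a covariate, also added after the data had been seen, the same genes were called in the liver of each strain as without it. The part of the enterocyte markers was not tested, nor was that of any list beyond these covariates.

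Among wild-type livers, D2 and B6 differed in Gclc, which was higher in D2 by 0.79 on the log2 scale (SE 0.13, adjusted p = 0.00138), with no overlap of the arrays. Its second probe set had 0.49 and was not called (adjusted p = 0.0444). Gclc was the only one of the 10 genes called, where 5.04% of all genes were. Wild-type D2 arrays lay wholly above wild-type B6 arrays in 5 of the 10 genes (15.6% of all genes) and wholly below in none. Txnrd1 (0.33, adjusted p = 0.0532) and Nfe2l2 (0.38, adjusted p = 0.0645) did not reach the threshold of this comparison, and the smallest differences were those of Ugdh (0.01), Nqo1 (0.13) and Gclm (-0.14). The Gclc call was lost with run as a block (adjusted p = 0.0108) and with the periportal score as a covariate (adjusted p = 0.106). The mean log2 signal of the D2 livers was below that of B6, with no overlap, for 6 macrophage markers (by a difference of -0.63), for the 5 periportal markers (-0.35) and for 7 hepatocyte markers (-0.18), and beyond that covariate their part was not tested. Probes can match the sequence of one strain better than that of the other, which was not tested. Probe sets of Gsr disagreed, with -0.17 for the leading one (adjusted p = 0.402) and -0.84 for the other (adjusted p = 0.000165). The wild-type arrays of this comparison are those of the knockout comparisons.

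In duodenum none of the 10 genes was called in the knockout of either strain. Few of all genes were called there, 0.00769% in B6 and 0.484% in D2. The median log2 fold change of the 10 genes was 0.12 in B6, with 9 positive, and 0.04 in D2, with 6 positive. Of the B6 knockout duodena, only replicate 1 shared the run of the wild-type B6 duodena. Within that run 6 of the 10 genes were positive, with a median of 0.03. In B6 duodenum no gene had groups apart (5% of all genes upward and 6.47% downward), and 3 had an unadjusted p under 0.05 (Me1, Gsr and Nqo1), as did 5.41% of all genes. In D2 duodenum none of the 10 did (12.5% of all genes), and the knockout arrays lay wholly above the wild type in Me1 and Txnrd1 (8.92% of all genes) and wholly below in Gsr (7.55% of all genes). For the interaction in duodenum none of the 10 was called, and 0.0154% of all genes were.

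Me1 had the largest log2 fold change of the 10 genes in both duodenal comparisons. Its signal was 279, 561 and 445 in wild-type B6 duodena and 709, 552 and 833 in the knockout, and 686, 906 and 694 against 943, 1040 and 1180 in D2. The B6 groups overlapped by 1 array and the D2 groups were apart. The log2 fold change was 0.74 in B6 (SE 0.22, adjusted p = 0.873) and 0.47 in D2 (SE 0.22, adjusted p = 0.428).

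Gclc, by contrast, gave 570, 688 and 650 in wild-type B6 duodena and 528, 441 and 1100 in the knockout, and 637, 665 and 992 against 778, 519 and 839 in D2. One B6 knockout array, replicate 3, was far above the others of its group. The log2 fold change was 0.00 in B6, with a 95% interval from -0.63 to 0.63, and -0.10 in D2, with an interval from -0.73 to 0.53. Gclm ranged from 605 to 857 over the 12 duodena, with log2 fold changes of 0.17 in B6 and -0.02 in D2. Ugdh ranged from 3110 to 4960, with 0.09 in B6 (interval from -0.16 to 0.34) and 0.22 in D2 (from -0.03 to 0.47). Txnrd1 ranged from 1560 to 2290, Srxn1 from 507 to 648, Gss from 371 to 611, Gsr from 339 to 566 and Nqo1 from 240 to 494.

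Transcripts of pancreatic acinar cells were present in the duodenal samples to a varying extent. The mean log2 signal of 8 acinar markers, relative to the mean of the duodenal arrays, was -1.20 to 1.16 in wild-type B6 mice, 0.83 to 1.80 in B6 knockout mice, 0.01 to 1.25 in wild-type D2 mice and -4.95 to 1.78 in D2 knockout mice, where replicates 2 and 3 were the lowest. With this score as a covariate, also added after the data had been seen, none of the 10 genes was called for the knockout.

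Between strains, wild-type D2 duodenum had a higher Nfe2l2 signal than B6, with 2490, 2260 and 2110 against 1420, 1440 and 1290. All wild-type B6 duodena were in run 1 and all wild-type D2 duodena in run 2, so strain and run cannot be told apart. The arrays were well apart, and the log2 difference was 0.72 (SE 0.11, adjusted p = 0.000813). It was the only one of the 10 genes called, against 3.31% of all genes, and D2 arrays lay wholly above B6 arrays in 5 of the 10 (11.5% of all genes). Nqo1 (0.67, adjusted p = 0.0217), Me1 (0.88, adjusted p = 0.0322) and Gsr (0.42, adjusted p = 0.0416) did not reach the threshold of 0.01. With run as a block the Nfe2l2 difference was 0.50 and was not called (adjusted p = 0.363). That fit rests on the B6 knockout duodena, the only group with arrays in both runs. The 6 lymphocyte markers were higher in wild-type D2 than in wild-type B6 duodenum by 0.54 on average, with no overlap, and their part in the difference was not tested.

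The difference between the tissues in the knockout effect was tested over all 24 arrays. Ugdh was the one gene called in B6, where its effect in liver exceeded that in duodenum by 0.92 on the log2 scale (SE 0.19, adjusted p = 0.0798), and 0.161% of all genes were called. In D2 it was Gclm, by 0.60 (SE 0.14, adjusted p = 0.0666), with 1.35% of all genes called. The second probe set of Gclm had D2 log2 fold changes of 0.31 in liver and 0.26 in duodenum. With its probe sets averaged the D2 difference of Gclm was 0.33 and was not called (adjusted p = 0.328). Gclc had a difference of 0.97 in B6 (SE 0.35, adjusted p = 0.44) and of 0.74 in D2 (SE 0.35, adjusted p = 0.402). Me1 differed by -0.01 in B6, with a 95% interval from -0.66 to 0.63, and by -0.08 in D2, from -0.73 to 0.57. Runs were defined within each tissue, so that none spans liver and duodenum. With run as a block both calls were lost (adjusted p = 0.226 for Ugdh and 0.348 for Gclm). Ugdh was also lost without any B6 wild-type array of either tissue, liver B6 knockout replicate 3, duodenum B6 knockout replicate 1 or 2, liver D2 knockout replicate 3 or duodenum D2 wild-type or knockout replicate 2 (adjusted p from 0.103 to 0.219). Gclm was lost without liver D2 wild-type replicate 1 or 2, liver D2 knockout replicate 2 or 3, duodenum D2 wild-type replicate 1 or 3 or duodenum D2 knockout replicate 2 (adjusted p from 0.111 to 0.16). Without duodenum B6 knockout replicate 3, the array far above its group for Gclc, the difference of Gclc in B6 was 1.37 and was called (adjusted p = 0.0679), and without liver D2 wild-type replicate 3 that of Ugdh in D2 was 0.67 and was called (adjusted p = 0.0914).

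Between liver and duodenum of wild-type mice, 9 of the 10 genes were called in B6 and 8 in D2. Of all genes, 51.7% and 51.2% were called. Runs were defined within each tissue, so tissue and run cannot be told apart. Gclc was higher in liver, by 1.56 on the log2 scale in B6 (SE 0.25) and 2.10 in D2 (SE 0.25). Nqo1, Ugdh, Nfe2l2, Txnrd1, Srxn1 and Gss were lower in liver in both strains, with differences in B6 of -2.48, -2.42, -1.89, -1.80, -1.71 and -0.81 and in D2 of -3.02, -2.19, -2.24, -1.67, -1.30 and -0.52. Gclm and Me1 were higher in B6 liver (0.51 and 0.80) and were not called in D2, while Gsr was lower in D2 liver (-0.63) and was not called in B6. The call of Me1 in B6 was lost without liver B6 wild-type replicate 1 or 2 or duodenum B6 wild-type replicate 1 (adjusted p from 0.0118 to 0.0435), and that of Gss in D2 without replicate 2 or 3 of the wild-type D2 arrays of either tissue (from 0.0128 to 0.0295). Me1 in B6 was at 0.34 and not called with its probe sets averaged (adjusted p = 0.267). Its other probe set had a mean signal of 281 over all liver arrays and of 423 over all duodenum arrays. With its probe sets averaged, Gclm was also called in D2, at 0.48 (adjusted p = 0.000209). Quantile normalization moved the median of all probe sets in this comparison by 0.18 in B6 and by 0.17 in D2.

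**Figure D3:**
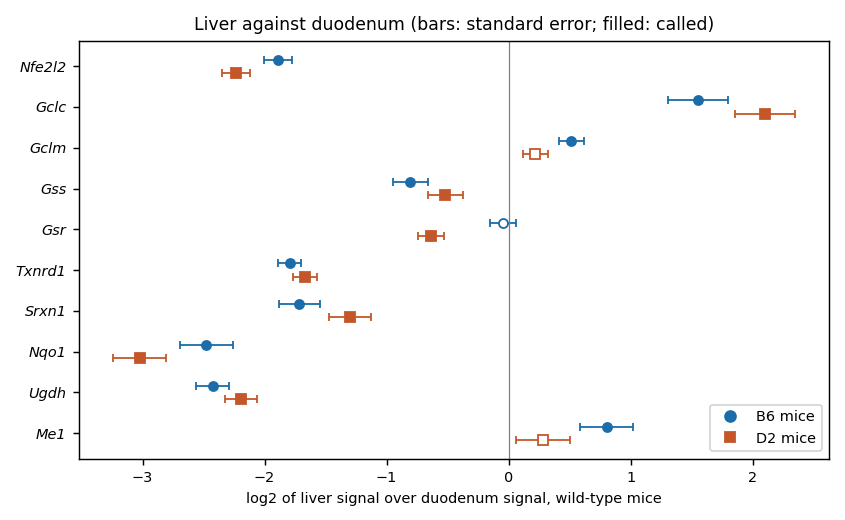
Log2 of the liver signal over the duodenum signal in wild-type mice for each of the 10 genes, with B6 mice as circles and D2 mice as squares. Bars are standard errors and filled points had an adjusted p no higher than 0.01. Gclc stands to the right of 0 in both strains and Nqo1, Ugdh, Nfe2l2, Txnrd1, Srxn1 and Gss to the left.

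Across the 12 liver arrays, which share strain and genotype differences, the closest pairs among the 10 genes were Gclm and Ugdh (Pearson r of log2 signals 0.93), Gclc and Me1 (0.82) and Nfe2l2 and Txnrd1 (0.74). Nqo1 went with Srxn1 (0.68) and not with Gclc (-0.34) or Gclm (-0.09). Of all genes, those with the highest r to Gclc were Gsta4 (0.96), Tax1bp3 (0.95) and Cyb5b (0.94), those to Gclm were Aox1 (0.97), 9130409I23Rik (0.95) and Ugt2b35 (0.94), those to Ugdh were Mrm1 (0.96), Slc35e3 (0.95) and Gclm (0.93), and those to Me1 were Laptm4a (0.93), Shld2 (0.91) and Ddrgk1 (0.90).

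The wider pathways were followed in 8 lists with 114 genes, of which 101 had a measured probe set of 1 symbol. In B6 liver 13 of the 101 rose (0.63% of all genes) and 0 fell (0.515% of all genes). In D2 liver 9 rose (1.72% of all genes) and 5 fell (1.58% of all genes). The same shares of all genes stand beside the liver counts of single lists below. Their median log2 fold change was 0.13 in B6 and 0.04 in D2, against 0.00 and 0.02 over all genes. In the interaction 0 were called in either tissue (0.223% of all genes in liver and 0.0154% in duodenum). In duodenum 0 were called in B6 and 1 in D2 (0.00769% and 0.484% of all genes). The 1 in D2 was the mitochondrial transhydrogenase Nnt (0.64, adjusted p = 0.0617).

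Most calls lay in the lists of glutathione use and other NRF2 targets. Of 21 genes that use glutathione, 6 rose and 0 fell in B6 liver, and 4 rose and 1 fell in D2 liver. Glutathione S-transferases made up the named ones: Gsta2 rose 2.84-fold in B6 (adjusted p = 0.000614) and 3.54-fold in D2 (adjusted p = 2.36e-05), Gsta4 1.95-fold and 1.75-fold (adjusted p = 0.000949 and 0.00301) and Gstm3 3.32-fold and 2.04-fold (adjusted p = 0.00103 and 0.025). Transferases of one class are close in sequence, so that probes of one may also read another. Among 16 other NRF2 targets, 5 rose and 0 fell in B6 liver and 2 rose and 1 fell in D2 liver. On the log2 scale Aox1, aldehyde oxidase, rose in both (1.02 in B6, adjusted p = 0.000955, and 1.20 in D2, adjusted p = 0.000156). Ephx1, microsomal epoxide hydrolase (0.64, adjusted p = 0.00733), and Slc48a1, a heme transporter (0.67, adjusted p = 0.0444), rose in B6, while in D2 Osgin1 rose (1.74, adjusted p = 0.00961) and Cbr1, carbonyl reductase, fell by 0.77 on the log2 scale (adjusted p = 0.0219). Hmox1, heme oxygenase, named after its values were seen, was at 0.65 in B6 and 0.98 in D2 and was not called (adjusted p = 0.41 and 0.123).

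The supply of cysteine and the turnover of glutathione gave no call upward beside Gclc and Gclm. Of 12 genes measured, 0 were called in B6 liver and 2 fell in D2 liver, Oplah (oxoprolinase, -0.91, adjusted p = 0.0163) and Mat1a (methionine adenosyltransferase, -0.51, adjusted p = 0.0662), and the list median was -0.12 in B6 and -0.16 in D2. Around Ugdh, 10 genes of UDP-glucuronate supply and use were measured. The UDP-glucuronosyltransferase Ugt2b35 rose in B6 (0.58, adjusted p = 0.05) and D2 liver (0.47, adjusted p = 0.0666), Ugt2b1 rose in D2 (0.75, adjusted p = 0.0232) and the phosphoglucomutase Pgm1 fell by 0.32 on the log2 scale in D2 (adjusted p = 0.0946).

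Around Me1, 1 of 9 genes of NADPH supply, the transketolase Tkt, rose in B6 liver (0.58, adjusted p = 0.06) and 0 in D2. A list of 12 genes was drawn around fatty acid synthesis, the pathway that spends much of Me1's NADPH, and also holds regulators and a glycolytic enzyme. Of these 12, 0 were called in B6 liver and 1 in D2, the glycolytic pyruvate kinase Pklr (1.01, adjusted p = 0.00583). The 10 measured genes of the thioredoxin system and the 11 genes that control NRF2 gave 0 calls in the liver of either strain. Keap1, named after its values were seen, was at 0.18 in B6 and 0.07 in D2 (adjusted p = 0.483 and 0.818).

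**Figure D4:**
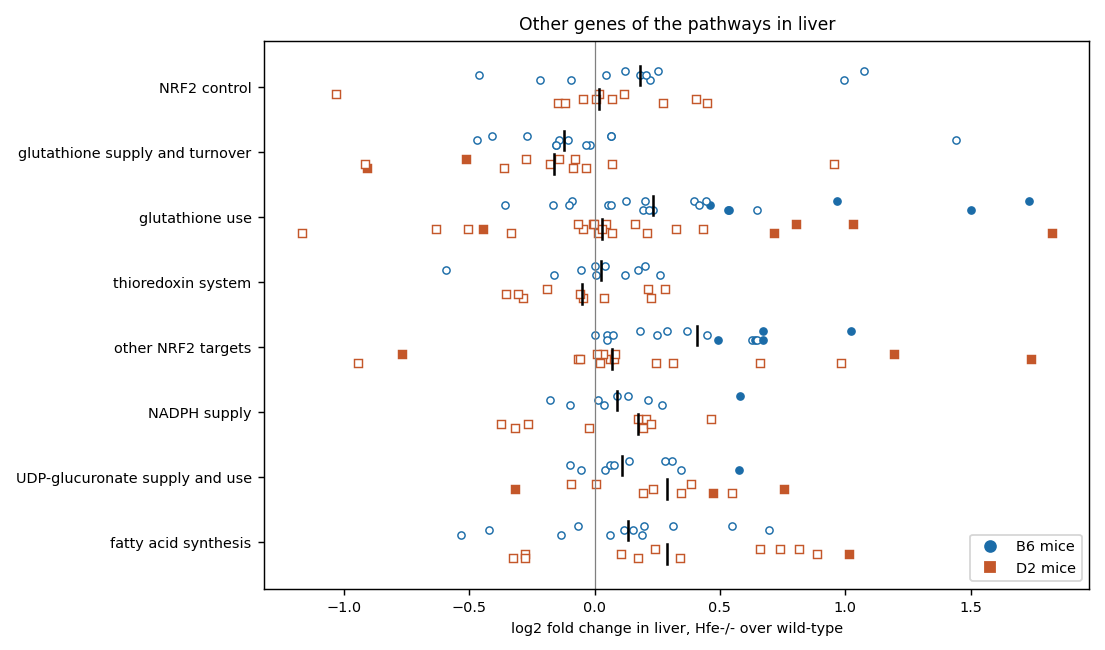
Log2 fold change in liver of Hfe-/- over wild-type mice for the 101 measured genes of 8 lists around the 10 genes, with B6 mice as circles and D2 mice as squares. Filled points had an adjusted p no higher than 0.1 and black bars are list medians, and most filled points lie in the lists of glutathione use and other NRF2 targets.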

How the data were processed

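Liver and duodenum RNA of 24 samples was hybridized to 1 Affymetrix array each, and the authors computed the deposited signal intensity of each probe set with MAS5 (version not given in the sources used here), on a linear scale. The files hold no detection calls, and the number of arrays limits the precision. Whether the replicate numbers of liver and duodenum name the same mouse was not given. Here log2 of the signals was taken with no pseudocount, and 28061 probe sets whose third-highest signal was at least 20 in a tissue were kept. Those of 1 symbol stand for 13006 genes (of all probe sets 34958 carry 1 symbol, 932 several and 9211 none). In R 4.3.3, limma 3.58.1 (lmFit, then eBayes with a trend) was fitted per tissue to 4 groups of 3 arrays, and over all 24 arrays for comparisons of the tissues, instead of the study's probe-level scores. Tests were checked on simulated data. Runs are arrays of a tissue hybridized within 15 min. The 10 genes and the lists were chosen with earlier results of these data known. All 10 genes are named, as are up to 4 called genes per list and comparison with the lowest adjusted p, and the 3 nearest genes of those called in liver. Alternatives were quantile normalization, 16 added to the signal before log2, a filter at 100 or none, no trend, a threshold divided by 2, run or replicate number as a block, only the 6 arrays compared, the mean of a gene's probe sets and each array left out, and, added after the data were seen, marker scores as covariates. Protein sequences were not used here. Figures were drawn with matplotlib 3.10.9.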

Additional observations from a re-analysis of the deposited data

Results flagged for a closer look

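The knockout effect differed between the tissues for 2 of the 10 genes by a test of that difference, 1 in each strain, where 0.161% of all genes were called in B6 and 1.35% in D2. Runs were defined within each tissue, so that none spans liver and duodenum. With run as a block neither was called (adjusted p = 0.226 and 0.348). Ugdh in B6 mice had a liver effect 0.92 above its duodenum effect on the log2 scale (adjusted p = 0.0798), with liver signals of 1380 to 1810 in the knockout against 707 to 806 in the wild type. Gclm in D2 mice had a liver effect 0.60 above its duodenum effect (adjusted p = 0.0666), with liver signals of 1140 to 1320 against 772 to 920. Its second probe set had D2 log2 fold changes of 0.31 in liver and 0.26 in duodenum.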

How the results depend on the processing

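Of the 10 genes, none changed the sign of a called value under any alternative, while the number called often moved. With eBayes and no trend 0 were called in the liver knockout of B6 and D2, in the liver strain comparison and in the tissue difference of the knockout effect of B6 and D2; over all probe sets the calls were then 26 against 287 in B6 liver and 86 against 773 in D2 liver. With hybridization run as a block 0 were called in D2 liver, in the strain comparison of liver or duodenum and in both tissue differences, and 4 in B6 liver. The tissue difference gave 0 in B6 with no filter, 0 in B6 and 0 in D2 with the threshold divided by 2 and 0 in D2 with each gene's probe sets averaged. The liver strain comparison gave 2 with only the 6 arrays compared and 2 with probe sets averaged. Of the covariates, the acinar score gave 2 in the duodenal strain comparison (Nqo1 was added), and the periportal score gave 1 in B6 liver and 0 in the liver strain comparison. The pericentral score changed no call in liver. With 1 array left out, the number called ranged from 2 to 4 in B6 liver, from 1 to 4 in D2 liver, from 0 to 1 in the liver interaction, from 8 to 9 and from 7 to 8 between tissues in B6 and D2, and from 0 to 2 in each tissue difference, while it was 1 in both strain comparisons and 0 in the other duodenal ones. For Ugdh in B6 and Gclm in D2 the tissue difference was lost in 16 and 11 of 33 alternatives, most of them arrays left out. Deviations of arrays with the same replicate number had correlations from -0.16 to 0.12 within a tissue and from -0.02 to 0.03 between tissues, so the numbers were not taken as pairs; with a replicate block 4 genes were called in B6 liver, 3 in D2 liver and 0 in either duodenum. The cause of these changes was not tested. Dim signals, as for Nqo1 in liver, are poorly measured.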
